A study of Homo sapiens
Mus musculus with 3 samples.

Results

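Mouse galectin-1 and 5 mouse S100 genes were followed through single-cell RNA-seq libraries of a nanowell system, in the wells that held mouse lymphoid cells. The 6 genes were S100a4 (ENSMUSG00000001020), S100a6 (ENSMUSG00000001025), S100a10 (ENSMUSG00000041959), S100a11 (ENSMUSG00000027907), S100a13 (ENSMUSG00000042312) and Lgals1 (galectin-1, ENSMUSG00000068220), taken by these identifiers out of the 27998 mouse genes listed in the read tables. S100a13 had been picked because its difference between the mouse lines depended on the protocol in earlier results of the same libraries, so its values between lines and protocols are described here and were not tested. Of the 6 genes, 5 had reads.

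Each library had been made from an equal mixture of 4 lymphoid cell lines: Jurkat and TALL-104, which are human T-cell leukemia lines, the mouse T lymphoma EL4, and the mouse B-cell hybridoma IVA12, that is a fusion of a B cell with a myeloma cell. Cells were dispensed on the ICELL8 cx into nanowells of known barcode. The group 3'DE (3' differential expression) held 2 libraries and the group 3'DE-UMI held 1, in which the protocol had been changed so that unique molecular identifiers (UMIs), short random tags that mark the copied molecules, could be counted. One cell mixture, per the sample sheet of the study, served for both the 3'DE-UMI library and 3'DE library 2. Another served for 3'DE library 1. No line carried a treatment, and each is a transformed line in culture.

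The deposited tables summed to 35581264 and 109702878 reads for the 3'DE libraries (1 and 2) and to 44883618 reads for the 3'DE-UMI library, and the UMI table of the last held 3833017 UMIs. After wells under 1000 reads or 200 genes and wells with at least 10% of reads from the other species were left out, 922, 773 and 700 mouse wells and 533, 484 and 557 human wells remained, in the order 3'DE library 1, 3'DE library 2, 3'DE-UMI, which is used throughout. The mixed wells left out numbered 180, 175 and 36. Between 469 and 539 barcodes were shared by each pair of libraries, counted before any well was left out. The mouse wells fell into 2 clusters, of 1442 and 953 wells, and the same clusters came from either of 2 separate sets of mouse genes for 2390 of 2395 wells. Members were measured in wells clustered without them. Because the identifiers of the T-cell and B-cell markers could not be looked up, the clusters could not be checked against these markers and are called mouse cluster 1 and mouse cluster 2, not EL4 and IVA12. Cluster 1 took up 475, 498 and 469 wells and cluster 2 took up 447, 275 and 231.

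S100 proteins are small calcium-binding proteins of the EF-hand type that act inside cells by binding partner proteins, and some are also released. S100a4 binds non-muscle myosin and is known from motile and metastatic cells, S100a6 (calcyclin) and S100a11 bind annexins, S100a10 forms a complex with annexin A2 at the plasma membrane, and S100a13 takes part in the release of growth factors that lack a signal peptide. Galectin-1 binds beta-galactoside sugars on cell surface proteins and is known in lymphoid tissue for its effects on T-cell survival.

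Lgals1, S100a6 and S100a4 were higher in cluster 1 in all 3 libraries, by 34.9- to 149-fold, 40.2- to 150-fold and 13.4- to 98.0-fold. S100a10 was the member that went the other way, being higher in cluster 2. S100a13 lay in cluster 1 as well, with values from 87.1 to 163 CPM (reads of the gene per 1000000 mouse reads) there and from 1.84 to 4.80 CPM in cluster 2. No read of S100a11 was found in any well. All CPM given here were summed over the wells of a cluster in a library, and they are compared between libraries and clusters but not between genes, since gene length was not known. In a sum over wells, fewer cells with the transcript and less of it per cell cannot be told apart.

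**Figure D1:**
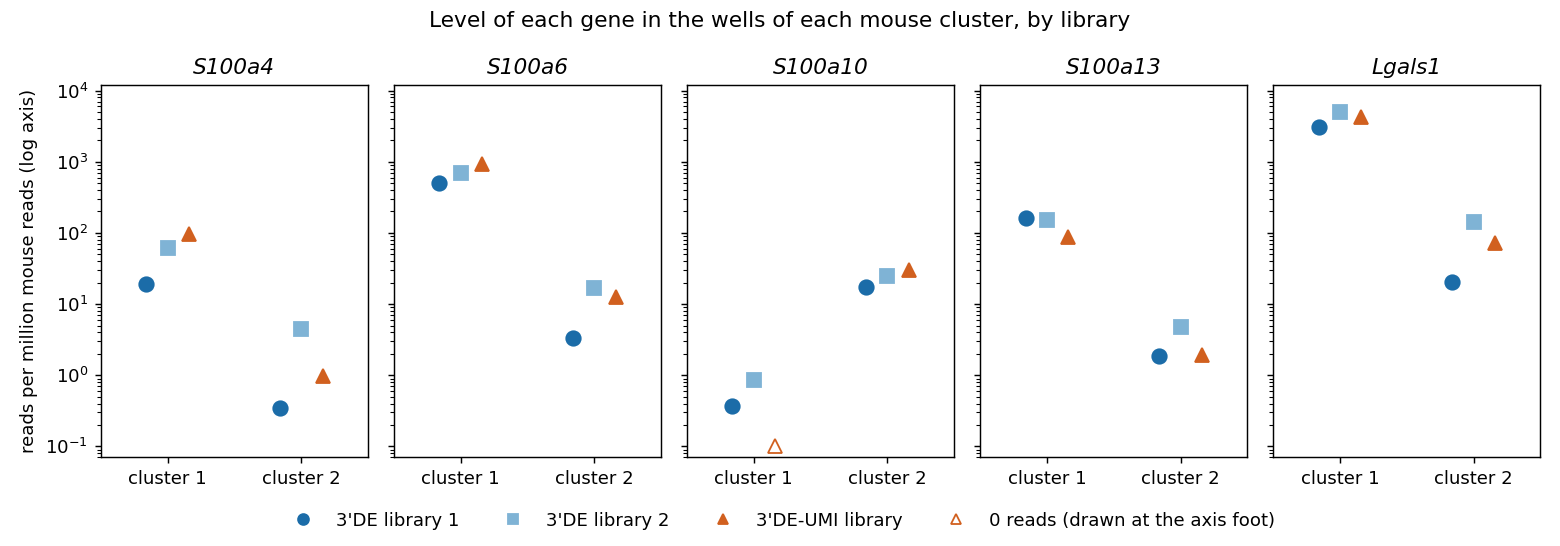
Level in CPM of mouse reads (log axis) of 5 genes in mouse cluster 1 and mouse cluster 2, 1 symbol for each library. Lgals1, S100a6, S100a13 and S100a4 sit higher in cluster 1 in all 3 libraries and S100a10 sits higher in cluster 2. The hollow triangle stands for 0 reads of S100a10 in cluster 1 of the 3'DE-UMI library.

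Lgals1 measured 3055, 5043 and 4301 CPM in cluster 1, from 40737, 202819 and 77574 reads. In cluster 2 it measured 20.5, 144 and 71.8 CPM. The clusters were far apart in every library and did not overlap. For how many of all mouse genes the clusters do not overlap was not counted, so a lack of overlap sets no member apart. Of 11269 mouse genes tested between the clusters, 40.5% were called at an adjusted p under 0.05, by edgeR's quasi-likelihood F-test with Benjamini-Hochberg adjustment and the library as a block. The 4 members that could be tested were all called, and the fitted difference of Lgals1 was 6.28 on the log2 scale (SE 0.40, edgeR adjusted p = 1.68e-05). With the library as a block, these p-values measure how the difference between the clusters varied over 3 libraries, with the spread drawn towards that of all genes tested. Nothing in the labels says that the libraries came from separate cultures. The SE given with edgeR values is the absolute log2 difference divided by the square root of the F statistic.

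S100a6 measured 499, 686 and 933 CPM in cluster 1 and 3.34, 17.0 and 12.7 CPM in cluster 2. Again each cluster 1 value lay above each cluster 2 value. The fitted log2 difference was 6.39 (SE 0.36, edgeR adjusted p = 9.47e-06).

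S100a4 measured 19.1, 60.8 and 95.6 CPM in cluster 1, so that both libraries of the shared cell mixture were above 3'DE library 1. In cluster 2 it measured 0.345, 4.54 and 0.976 CPM, which rested on 3, 70 and 10 reads. The values of the clusters did not overlap, and the fitted log2 difference was 5.33 (SE 0.57, edgeR adjusted p = 0.000189).

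S100a10 measured 0.375 and 0.845 CPM in cluster 1 of the 3'DE libraries, which came to 5 and 34 reads, and it had no read there in the 3'DE-UMI library. Of the 34 reads, 79.4% came from 1 well. In cluster 2 the level was 17.4, 24.9 and 30.0 CPM, from 151, 384 and 307 reads. All 3 cluster 2 values were thus above the cluster 1 values, and the fitted log2 difference was -5.81 (SE 0.86, edgeR adjusted p = 0.00106). Set against a floor of 3 reads in the library, cluster 2 was at least 180-fold higher in the 3'DE-UMI library, beside 46.3-fold and 29.4-fold in the 3'DE libraries.

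The direction and the call of these 4 members between the clusters were the same in all 11 alternative analyses, in which the log2 difference ran from 5.79 to 7.02 for Lgals1, from 6.03 to 7.01 for S100a6, from 4.54 to 6.56 for S100a4 and from -6.90 to -4.88 for S100a10.

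S100a11, at 0 reads over all barcodes of the 3 read tables, was among 8606 of the 27998 mouse genes (30.7%) with no read there, and the UMI table had no entry for it. With 40221287 mouse reads in cluster 1 of 3'DE library 2, the count of 0 allows up to 0.0746 CPM (3 reads) in that cluster. At 5000 reads a well, 0 of 478 wells allows a share of up to 0.628% by the limit of 3 counts, and up to 0.769% by the exact binomial 95% interval. These limits cover counting error only. Whether reads of this gene were lost to near-identical copies elsewhere in the genome was not tested.

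In the lower cluster, Lgals1, S100a6 and S100a13 kept percentages of their level near those of 20 genes restricted to cluster 1. These 20 genes were taken from the gene set that had made the clusters and holds no member, by their ratio between the clusters in these libraries. Their low level in cluster 2 was thus fixed by how they were chosen and is no measure of background. Their summed level in cluster 2 was 0.939%, 3.01% and 2.26% of that in cluster 1. For Lgals1 the same percentage was 0.670%, 2.86% and 1.67%, for S100a6 it was 0.669%, 2.49% and 1.36%, and for S100a13 it was 1.13%, 3.13% and 2.24%. All 3 genes had their lowest percentage in 3'DE library 1 and their highest in 3'DE library 2, as the 20 genes did. S100a4 had 1.81%, 7.46% and 1.02%, above the 20 genes in the 3'DE libraries and below them in the 3'DE-UMI library. Its cluster 2 values rested on 3, 70 and 10 reads. The 20 genes were taken as a sum, and how far single genes among them spread was not measured, so S100a4 is not set apart by these values. For S100a10, whose lower cluster was cluster 1, the level there was 2.16%, 3.40% and 0% of that in cluster 2, beside 5.24%, 3.46% and 2.87% for 20 genes restricted to cluster 2.

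**Figure D2:**
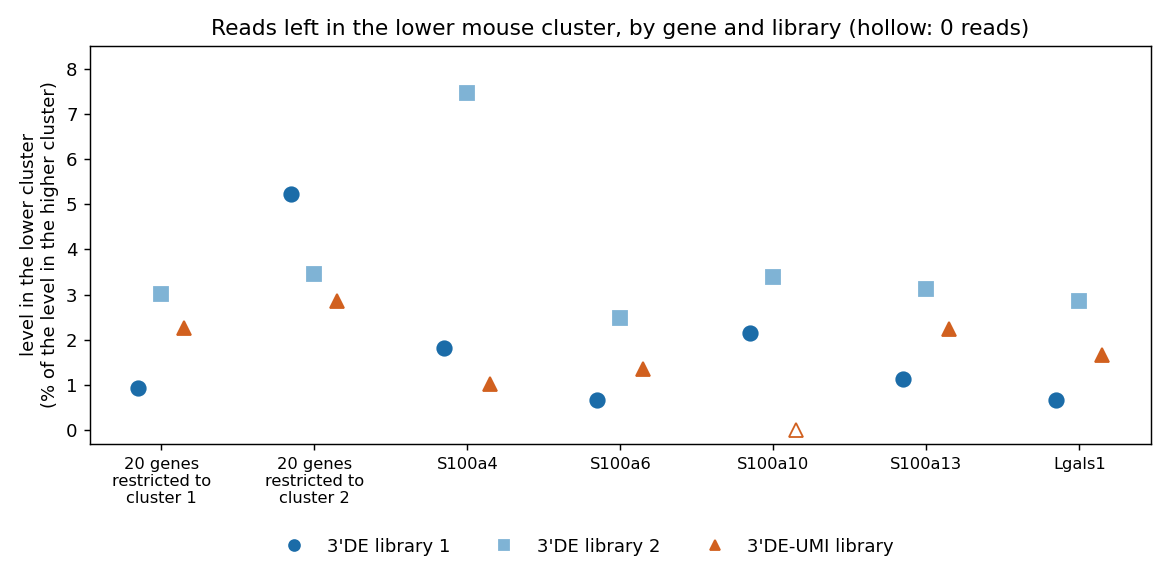
Level in the lower mouse cluster as a percentage of the level in the higher one, for 20 genes restricted to each cluster and for 5 members, 1 symbol for each library. S100a13, S100a6 and Lgals1 stay at or under 3.13%, beside 3.01% at most for the 20 genes restricted to cluster 1, and S100a4 reaches 7.46% in 3'DE library 2.

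Wells with human cells gave the background of mouse transcripts. They held 162, 3726 and 669 reads of mouse Lgals1 and 39, 715 and 165 of S100a6. Per 1000 reads of the 20 genes restricted to cluster 1, Lgals1 had 604 reads in cluster 1, 575 in cluster 2 and 628 in human wells of 3'DE library 2. In 3'DE library 1 the ratio was 429, 306 and 340, and in the 3'DE-UMI library it was 498, 368 and 586. The ratio of Lgals1 to these genes thus ran from 306 to 628 over cluster 1, cluster 2 and human wells, and what set it was not tested. S100a4 had 2.67 reads per 1000 in cluster 1, 5.15 in cluster 2 and 2.10 in human wells of 3'DE library 1, from 3 reads in cluster 2 and 1 read in human wells. In 3'DE library 2 it had 7.28, 18.1 and 29.1, and in the 3'DE-UMI library 11.1, 5.0 and 24.5. Its ratio outside cluster 1 was thus higher in both places in 3'DE library 2 alone, and mixed in direction in the others. When only wells with under 10% of their restricted-gene reads from the other cluster's genes were summed, a limit chosen after seeing the data, the log2 difference between the clusters was 7.02 for Lgals1, 7.01 for S100a6, 5.84 for S100a4 and 7.13 for S100a13, beside 6.28, 6.39, 5.33 and 5.80 in all wells. For S100a10 the log2 difference was -5.62 under this limit, beside -5.81 in all wells. The limit kept 344, 416 and 401 wells of cluster 1 and 443, 265 and 226 of cluster 2. Under it, S100a13 had no cluster 2 read in the 3'DE-UMI library. The part of carried-over reads in the member levels of the remaining wells was not tested.

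To compare shares of wells at 1 depth, every well was thinned to 5000 reads, and shallower wells were left out, which kept 460, 478 and 456 wells of cluster 1 and 426, 237 and 225 of cluster 2. Lgals1 was found in 99.8% (exact binomial 95% interval 98.8 to 99.99), 99.8% (98.8 to 99.99) and 96.7% (94.6 to 98.1) of cluster 1 wells. In cluster 2 it was found in 6.10%, 53.6% and 9.33% of wells, beside 5.67%, 41.4% and 8.75% of human wells. In the first and the last of these libraries the cluster 2 share lay within the interval of the human wells (3.70 to 8.25 and 6.43 to 11.6), so no difference from the background of human wells was detectable at this depth. In 3'DE library 2 the interval in cluster 2 (47.0 to 60.1) lay above that of the human wells (36.8 to 46.1). Without thinning, at median depths of 21748 and 34368 reads, Lgals1 was found in 91.3% of cluster 2 wells and 88.0% of human wells of that library. In the 3'DE-UMI library the unthinned shares were 33.3% (27.3 to 39.8) and 18.1% (15 to 21.6), at median depths of 33724 and 16457 reads, which differ. In 3'DE library 1 they were 17.9% (14.5 to 21.8) and 11.6% (9.04 to 14.7), at median depths of 20307 and 21426 reads, which are close. These last intervals barely overlapped. With all reads kept, the cluster 2 share was thus above that of human wells in each library.

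S100a6 was found in 78.0%, 78.7% and 69.1% of cluster 1 wells at 5000 reads. Its share in cluster 2 was 0.704%, 14.8% and 1.78%, and in human wells 0.680%, 7.38% and 1.99%. Here too 3'DE library 2 was the library with the higher share outside cluster 1.

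S100a4 was found in 8.04% (5.73 to 10.9), 23.0% (19.3 to 27.1) and 24.8% (20.9 to 29.0) of cluster 1 wells. The libraries of the shared mixture had overlapping intervals, and 3'DE library 1 lay below both. In cluster 2, 0, 5 and 0 wells had a read, and 0 of 426 and 0 of 225 wells allow shares of up to 0.704% and 1.33% at this depth by the limit of 3 counts, and up to 0.862% and 1.63% by the exact binomial interval. With all reads kept, S100a4 was found in 4 of 231 cluster 2 wells by 3'DE-UMI.

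S100a10 was seen in few wells even in cluster 2. At 5000 reads it was found in 5.40% (3.45 to 7.99), 11.4% (7.64 to 16.1) and 2.67% (0.985 to 5.71) of the wells there, beside 0.454%, 0.224% and 0% of human wells. With all reads kept, at median depths of 20307, 21748 and 33724 reads, 42 of 447, 44 of 275 and 12 of 231 cluster 2 wells had a read. Those wells held 3.60, 8.73 and 25.6 reads each on average, so that the 3'DE-UMI library had the fewest wells and the most reads in each of them.

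**Figure D3:**
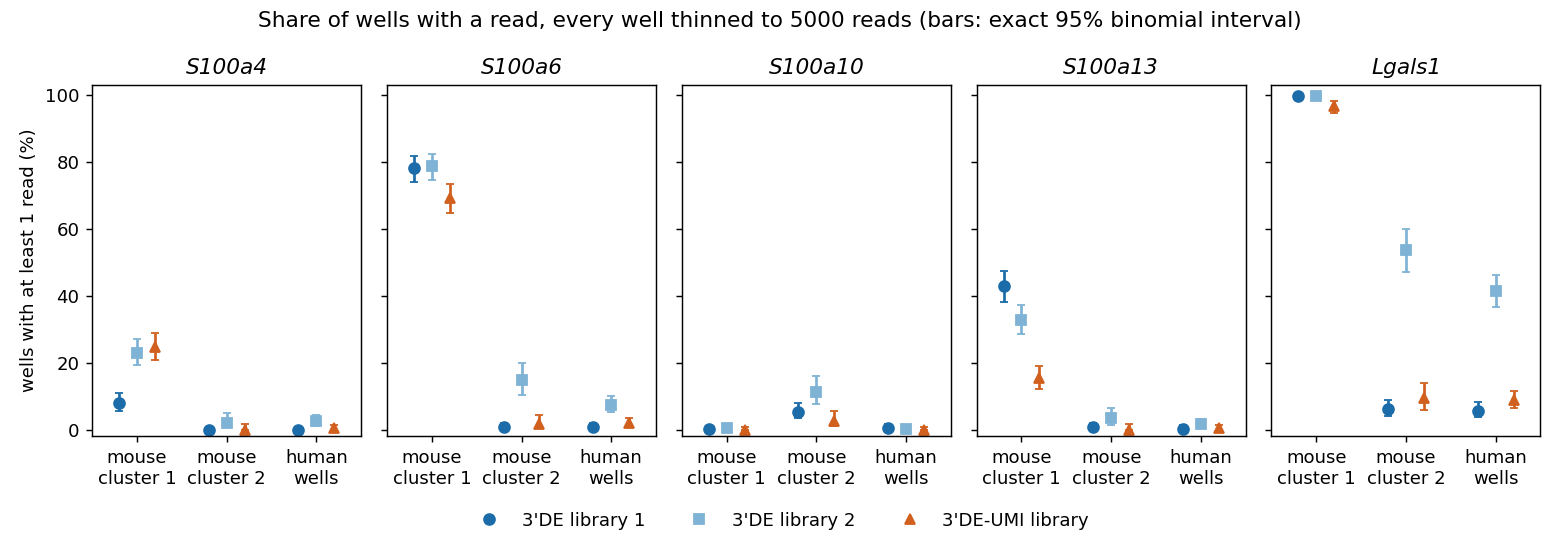
Share of wells with at least 1 read of each gene when every well is thinned to 5000 reads, in mouse cluster 1, mouse cluster 2 and human wells, 1 symbol for each library, with exact binomial 95% intervals. S100a13 in cluster 1 falls from 42.8% and 32.8% in the 3'DE libraries to 15.4% in the 3'DE-UMI library, and Lgals1 is found in 53.6% of cluster 2 wells and 41.4% of human wells of 3'DE library 2.

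S100a13 was the gene chosen for a dependence on the protocol, and its values are given without a test. In cluster 1 it measured 163, 153 and 87.1 CPM, from 2176, 6158 and 1570 reads. In cluster 2 it measured 1.84, 4.80 and 1.95 CPM, from 16, 74 and 20 reads, the last all in 1 well. The mean of the 3'DE libraries was 158 ± 7.14 CPM in cluster 1 and 3.32 ± 2.09 CPM in cluster 2 (SD, n = 2), so the 3'DE-UMI value was under both 3'DE values in cluster 1 and between them in cluster 2. The log2 difference between the clusters was 6.47, 5.0 and 5.48, so the 3'DE-UMI value was bracketed by the pair of 3'DE values. The 3'DE-UMI value rested on the 20 cluster 2 reads of that 1 well. In the wells under the restricted-gene limit, which left that well out, the 3'DE-UMI library had no cluster 2 read of S100a13, and the fitted change of the cluster difference with the protocol went from -0.03 to 6.95 (SE 1.72), a size that depends on the prior count. Whether the difference moved with the protocol can therefore not be read from these sums, while the level within cluster 1 was lower in the 3'DE-UMI library than in both of them.

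The wells with S100a13 were fewer in the 3'DE-UMI library. At 5000 reads a well it was found in 42.8% (38.3 to 47.5) and 32.8% (28.6 to 37.3) of cluster 1 wells of the 3'DE libraries and in 15.4% (12.2 to 19.0) of those of the 3'DE-UMI library, which was 70 of 456 wells. Wells with a read held 1.88, 2.13 and 2.86 reads each on average. With all reads kept, at median depths of 28581, 37736 and 29802 reads, the shares were 74.5%, 58.2% and 20.9%, and the reads in a positive well 6.15, 21.2 and 16. The 10% of wells with the most reads of the gene held 36.6%, 62.2% and 80.6% of its reads. In cluster 2 it was found in 0.704%, 3.38% and 0% of wells at 5000 reads, beside 0.227%, 1.57% and 0.398% of human wells. The cluster 1 share at 5000 reads was also lowest in the 3'DE-UMI library for S100a6 (69.1%) and Lgals1 (96.7%). For S100a4 it was highest there (24.8%). The paper reports fewer genes detected per EL4 cell with 3'DE-UMI than with 3'DE. The change in share over all mouse genes was not counted here, so the fall does not set S100a13 apart.

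**Figure D4:**
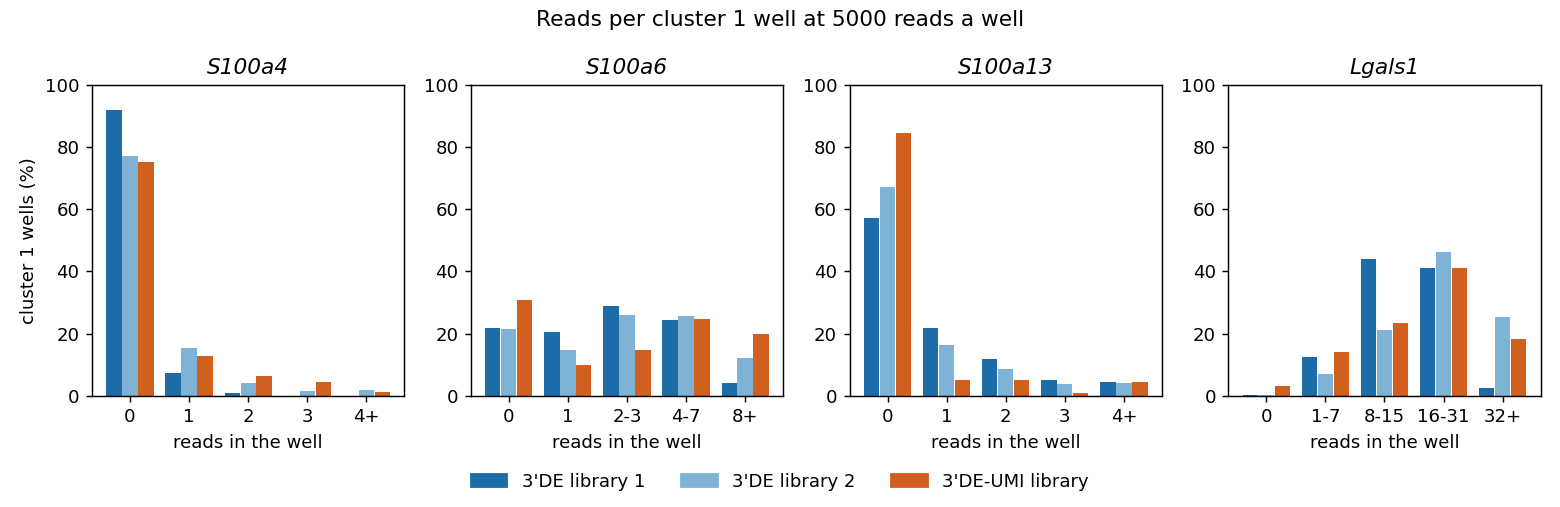
Percentage of cluster 1 wells with a given number of reads of S100a4, S100a6, S100a13 and Lgals1 when every well is thinned to 5000 reads, by library. For S100a13, 57.2%, 67.2% and 84.6% of wells have 0 reads, in the order of the legend, and the share with exactly 1 read is 21.7%, 16.3% and 5.04%.

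For 4 members, 3'DE library 1 had the lowest ratio of variance to mean over cluster 1 wells. The highest came from 3'DE-UMI for Lgals1, S100a6 and S100a13, and from 3'DE library 2 for S100a4. At 5000 reads the variance over the mean of reads in cluster 1 wells was 3.39, 6.85 and 8.61 for Lgals1 and 2.45, 4.15 and 6.78 for S100a6. For S100a13 it was 1.83, 2.89 and 4.36, and for S100a4 it was 1.11, 2.49 and 1.85. A value of 1 is what random sampling of reads gives. This ratio can grow with the mean, so it does not measure unevenness alone. The mean of S100a4 was 0.0891, 0.387 and 0.441 reads a well. With all reads kept, the 10% of wells with the most S100a4 reads held 57.5%, 63.5% and 52.6% of them. That share was 22.1%, 46.9% and 35.3% for Lgals1, 28.3%, 49.1% and 41.6% for S100a6, and 36.6%, 62.2% and 80.6% for S100a13. Over the 6 pairs of these genes in each library, Spearman's rho across cluster 1 wells ran from -0.16 to 0.19 with a median of 0.053. The wells share a library and its depth, the counts are sparse, and no relation is read from these values.

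The 3'DE-UMI library was then set against the 3'DE libraries within each cluster, by the edgeR quasi-likelihood F-test with 1 residual degree of freedom. The lone 3'DE-UMI library is thereby assumed to vary as its 3'DE counterparts do. The spread of each gene is drawn towards that of all genes tested, so it is not the one between a gene's own 3'DE values. In cluster 1, 11.8% of 11786 mouse genes were called, and of the 4 tested members 0 were called, with 1 (S100a4) at an unadjusted p under 0.05 and 0 by DESeq2. The fitted log2 difference of S100a4 was 1.14 (SE 0.48, edgeR adjusted p = 0.139), its level being 95.6 CPM in the 3'DE-UMI library and 39.9 ± 29.5 CPM in the 3'DE libraries (SD, n = 2). It was 0.58 against 3'DE library 2, of the same mixture, and 2.10 against 3'DE library 1. In the setting with UMIs, the 3'DE libraries kept reads, which other software had counted. Protocol and way of counting cannot be told apart in that setting. Within cluster 1 of the 3'DE-UMI library itself, S100a4 stood at 353 CPM in UMIs and 95.6 CPM in reads. S100a4 became called, at 3.11 (SE 0.47, edgeR adjusted p = 0.00075), when UMIs took the place of reads in the 3'DE-UMI library, and at 1.13 (edgeR adjusted p = 0.0315) without the filter on low counts.

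For S100a6 the fitted log2 difference was 0.53 (SE 0.31, edgeR adjusted p = 0.278) and for Lgals1 it was -0.04 (SE 0.31, edgeR adjusted p = 0.949). The Lgals1 level of 4301 CPM with 3'DE-UMI was inside the range of both 3'DE values, and that of S100a6, at 933 CPM, lay above 592 ± 132 CPM (SD, n = 2). S100a10, with 0 reads in the 3'DE-UMI library, passed no threshold (edgeR adjusted p = 0.227), and its fitted value depends on the prior count. In cluster 2, 2.33% of 11654 genes were called, and 0 of the 4 tested members, with 0 at an unadjusted p under 0.05 and 0 by DESeq2. The adjusted p by edgeR ran from 0.722 for S100a4 to 0.928 for S100a6. S100a10 measured 30.0 CPM there in the 3'DE-UMI library, beside 21.1 ± 5.32 CPM in the 3'DE libraries (SD, n = 2).

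The 3'DE libraries differed from each other as well. From 3'DE library 1 to 3'DE library 2, S100a4 changed by 1.62 on the log2(CPM + 1) scale in cluster 1, above 99.4% of 6676 genes with a mean of at least 10 CPM, whose 5th to 95th percentiles were -0.60 to 1.02. In cluster 2, Lgals1 changed by 2.76, above 99.9% of 7043 such genes, S100a6 by 2.06 (above 99.4%) and S100a4 by 2.04 (above 99.3%). S100a13 and S100a10 changed less there, by 1.03 and 0.50. In human wells at 5000 reads, the share with mouse Lgals1 was also higher in 3'DE library 2 (41.4%) than in 3'DE library 1 (5.67%). The part of carried-over reads in these cluster 2 changes was not tested. S100a13 changed by -0.09 in cluster 1, where the median gene changed by 0.10. From 3'DE library 2 to the 3'DE-UMI library S100a13 changed by -0.81, and 18.6% of genes had a lower value.

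An interaction term tested whether the difference between the clusters itself varied with the protocol, and 2.17% of 13253 genes were called for it by edgeR. Lgals1 (-0.13, SE 0.37, edgeR adjusted p = 0.992) and S100a6 (0.19, SE 0.40, edgeR adjusted p = 0.966) did not pass. S100a4 passed narrowly, at 2.4 (SE 0.73, edgeR adjusted p = 0.0490), as its log2 difference between the clusters was 5.79, 3.74 and 6.61. For the 3'DE libraries alone that log2 difference was 4.77 ± 1.44 (SD, n = 2). The SE of 0.73 rests on a spread drawn towards that of all genes, not on these values alone. Without 3'DE library 2 the interaction value was 1.0 and without 3'DE library 1 it was 2.89, neither with a test. The call was lost in 6 of 7 other analyses with a test, and the 1 that kept it used the restricted-gene limit chosen after seeing the data. S100a10 passed too (edgeR adjusted p = 0.0310), and rested on 0 against 5 and 34 reads in cluster 1. Neither passed by DESeq2, with UMIs or with thinned wells. The corresponding value of S100a13 was -0.03 (SE 0.62), with no test. Without 3'DE library 1, which leaves the libraries of the shared mixture, it was 0.50, and without 3'DE library 2 it was -0.84.

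In the 3'DE-UMI library the UMI counts showed how many tagged molecules lay behind the reads. Cluster 1 held 6494 UMIs of Lgals1, 1217 of S100a6, 550 of S100a4 and 130 of S100a13. Lgals1 had 11.9 reads per UMI, S100a6 13.8 and S100a13 12.1, beside a median of 13.8 over 2086 mouse genes with at least 100 UMIs in that cluster. These 3 genes were thus close to the median gene. S100a4 had 3.13 reads per UMI, and 2.92% of the genes had fewer. It had more UMIs than reads in 23 wells and a UMI with no read in 18 wells, which occurred in 0 wells for Lgals1 and S100a13. The read and UMI tables had been made with different counting software, so a gene's UMIs need not be collapsed from the reads counted here, and the part of this in the S100a4 value was not tested. S100a10 had 18 UMIs in cluster 2, at 17.1 reads per UMI.

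On the UMI scale, with UMIs counted as CPM of all mouse UMIs, S100a13 stood at 83.5 CPM in cluster 1, with 87.1 CPM in reads, and Lgals1 at 4171 CPM, with 4301 CPM in reads. S100a4 stood at 353 CPM in UMIs, with 95.6 CPM in reads. S100a6 stood at 782 CPM in UMIs and 933 CPM in reads in cluster 1. In cluster 2, S100a10 stood at 19.2 CPM in UMIs and 30.0 CPM in reads, from 18 UMIs, and Lgals1 at 129 CPM in UMIs and 71.8 CPM in reads. No test was made between the scales. At 500 UMIs a well, S100a13 was found in 20 of 460 cluster 1 wells, which was 4.35% (2.68 to 6.64), and in 1 of 488 human wells. S100a4 was found in 13.9% (10.9 to 17.4) and Lgals1 in 81.7% (77.9 to 85.2) of the same cluster 1 wells.

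The genes whose pattern over the 6 sums was most like that of S100a13 were sought by the Euclidean distance of log2(CPM + 1), each gene centred on its mean, among 5082 genes with a mean within 4-fold of its own. The nearest was ENSMUSG00000052889, at a distance of 0.566, followed by ENSMUSG00000039168 at 0.591, where the median distance of all was 6.77. The first of these measured 53.0, 68.8 and 42.6 CPM in cluster 1 and 0.344, 1.36 and 0 CPM in cluster 2, a likeness fixed by how it was chosen. These sums used, for each gene, wells clustered on the set that did not hold it.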

How the data were processed

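Single-cell RNA-seq of 3 ICELL8 libraries was used. The tables deposited by the authors hold raw counts per gene and well barcode: read counts for all libraries, made with mappa (STAR 2.7.0b) on a combined hg19 and mm10 reference, and UMI counts for the 3'DE-UMI library, made with the Drop-seq tools (STAR 2.4.2a). The authors downsampled reads in the study; whether these tables come from downsampled reads is not given in the sources used here. Reads without UMIs are not independent molecules, so intervals cover counting error only, and the totals, 35581264 to 109702878 reads, set the precision.

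Groups came from the labels. Mouse wells were clustered with scanpy 1.11.5 (1000 variable genes, 20 principal components, 15 neighbours, Leiden resolution 0.1, values scaled within each library and limited to 10) on each of 2 sets of mouse genes, and each set was tested in wells clustered on the other. Reads were summed per library and cluster, giving 6 sums, and tested with edgeR 4.0.16 (R 4.3.3) after TMM normalization and its low-count filter, with calls at an adjusted p of 0.05. The test was first run on simulated sums of independent counts with 1 fixed spread for all genes. These held no shared cell mixture and no carried-over reads, and no gene near 0 reads was changed. That run is therefore no check on members with few reads. A restricted gene was one of the 20 in each cluster with the largest ratio between clusters at 100 CPM or more. No doublet caller was run beyond the removal of wells with reads of both species. DESeq2 1.42.0, other filters, thinning, UMIs, the fit without the block and leaving out each library were tried. The tables pair identifiers with no symbol, so symbols came from the definition of the gene set; 0 genes of the planned marker and pathway lists could be matched, and their counts, the genes' positions and sequences were not analysed here. The members and lists were chosen with earlier results of these data known. Members are all named; of the genes nearest to S100a13 the first in distance are named.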

Additional observations from a re-analysis of the deposited data

Results flagged for a closer look

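The difference of S100a4 between the clusters differed between the protocols by the interaction test (2.4 on the log2 scale, SE 0.73, edgeR adjusted p = 0.0490, in a background of 2.17% of genes called). Its cluster 1 levels were 19.1, 60.8 and 95.6 CPM and its cluster 2 levels rested on 3, 70 and 10 reads, in the order 3'DE library 1, 3'DE library 2 and 3'DE-UMI library. Over 7 alternatives with a test the adjusted p ran from 0.00409 to 0.766. The 1 that passed the threshold was the restricted-gene limit, chosen after seeing the data, and the other 6 lost the call. Without 3'DE library 2 the value was 1.0, with no test. The SE rests on a spread drawn towards that of all genes, not on the values of S100a4 alone.

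The difference of S100a10 between the clusters also differed between the protocols by the interaction test (fitted value -6.87, SE 1.99, edgeR adjusted p = 0.0310). With 0 reads in cluster 1 of the 3'DE-UMI library the size of this value, and of the SE computed from it, depends on the prior count and is no bound. Of 7 alternatives with a test, 4 passed the threshold, and the adjusted p ran from 0.0307 to 1.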

How the results depend on the processing

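Lgals1, S100a6, S100a4 and S100a10 kept their direction and their call between the clusters under the 11 alternatives run, which included DESeq2, no low-count filter, UMIs, thinned wells and leaving out each library. The number of genes called between the clusters was 4568. It fell to 2980 without the replicate block and lay between 2833 and 5070 when 1 library was left out (2833 without 3'DE library 2), where fewer sums were tested. No call of a member was changed by the fit without the library block, and no samples were paired by number. In cluster 1, 1 member (S100a4) was called between the protocols with no low-count filter and 1 (S100a4) with UMIs. For the interaction, 2 members were called. With at least 5000 reads a well, with no low-count filter and with the other species under 5% it was 1 (S100a10), and with DESeq2, thinned wells and UMIs it was 0. The genes called by the interaction were 288, beside 33 with DESeq2, 182 with thinned wells and 8 with UMIs. The cause was not tested. In the protocol comparisons with UMIs, the 3'DE libraries kept reads, so protocol and way of counting cannot be told apart there.

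Several protocol and interaction values that did not pass the threshold changed sign. Lgals1 between the protocols became 0.0041 in cluster 1 with wells holding under 10% of the other cluster's restricted genes, an alternative chosen after seeing the data, and 0.67 in cluster 2 with UMIs, and its interaction became 0.34 with thinned wells and 0.95 with the restricted-gene limit. S100a4 in cluster 2 became 0.81 with UMIs. S100a6 in cluster 2 became -0.85 with thinned wells and -0.85 with the restricted-gene limit, and its interaction became -0.90 with UMIs. S100a10 in cluster 2 became -0.17 with thinned wells and -0.23 with UMIs. Leaving out a 3'DE library, with no test, also changed signs. Lgals1 between the protocols became 0.27 in cluster 1 and 1.38 in cluster 2 without 3'DE library 2, and its interaction became 0.80 without 3'DE library 1. S100a6 in cluster 2 became -0.49 without 3'DE library 1, and its interaction became -0.87 without 3'DE library 2. In cluster 2, 32% of the genes called between the protocols had the higher level with 3'DE-UMI, beside 10% with DESeq2, 47.9% with thinned wells and 73.0% with UMIs.

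The share of cluster 1 wells with S100a13 moved with depth, from 42.8% at 5000 reads to 74.5% with all reads and 25.8% at 2000 reads in 3'DE library 1, from 32.8% to 58.2% and 20.6% in 3'DE library 2, and from 15.4% to 20.9% and 11.3% in the 3'DE-UMI library, where it was 4.35% at 500 UMIs. The order of the libraries was the same at each read depth. The interaction value of S100a13, which has no test, was 6.95 with the restricted-gene limit, where the only cluster 2 well with its reads in the 3'DE-UMI library is left out, and 0.83 with UMIs. Leaving out a 3'DE library leaves the protocol and interaction fits no residual degree of freedom, so those are values with no test. Wells assigned by marker genes and a marker purity limit, both planned, were not run because no marker could be matched to an identifier. Depth limits S100a10 in cluster 1 (0 to 34 reads) and S100a4 and S100a13 in cluster 2 (3 to 74 reads).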
